A study of Mus musculus with 6 samples.

Results

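Chromatin modifier genes encode the enzymes and complexes that add, remove or read marks on histones and DNA, or that move nucleosomes. Here 45 of them, of 21853 protein-coding genes in the annotation, were followed in ATAC-seq peak lists of skeletal stem and progenitor cells (SSPCs). ATAC-seq inserts sequencing adapters into accessible DNA, so a called peak marks a stretch of open chromatin. The members were taken by name in 4 role groups: 16 deacetylases and sirtuins, 7 genes of DNA methylation, 8 Polycomb genes, and 14 histone demethylases and members of activating complexes. The readout for a gene was its TSS peak, a called peak that lay at least in part within 1000 bp of the transcription start site (TSS) of one of its protein-coding transcripts. Where several peaks did, the peak with the highest −log10 q was used, which can lie at different starts of a gene in different libraries. Its rank is the percentile, from 0 to 100, of its −log10 q among all peaks of the same list.

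The cells were grown from tibial and femoral bone marrow of untreated C57BL/6 mice labelled young (3 libraries) or middle-aged (3 libraries) and were used at passage 1. The labels give no age in months and no sex for these libraries, and they do not say whether each library came from a single mouse, so the spread between libraries may be partly technical. Marrow was plated on plastic without a sorting step in the stated protocol, which limits the cultures as a model of a single cell type. The comparison asks how promoter accessibility differed between young and middle-aged SSPCs.

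Histone deacetylases and the NAD-dependent sirtuins remove acetyl groups and so favour compact chromatin. DNA methyltransferases write cytosine methylation, UHRF1 brings DNMT1 to newly copied DNA, and the TET enzymes oxidise the methyl mark. Polycomb complexes silence developmental genes, PRC2 by methylating lysine 27 of histone H3 and PRC1 by ubiquitinating histone H2A. They are opposed by the KDM6 demethylases, by the MLL-type methyltransferases KMT2A and KMT2D, by the acetyltransferases EP300 and CREBBP and by the SWI/SNF remodellers.

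The young lists held 27628 to 43941 peaks and the middle-aged lists 46364 to 48344. Young 3 was the shortest list and had the lowest genome-wide background, 1.65 extended reads per base against 2.40 to 3.75 in the other 5 libraries. The labelled cell type was checked against its markers. Of 12 SSPC markers, 4 to 7 had a TSS peak in each young library and 6 to 8 in each middle-aged library. Kitl, Ebf3, Foxc1 and Nt5e had one in all 6 libraries, whereas Lepr, Prrx1, Ly6a and Thy1 had none in any. Of 12 hematopoietic markers, 8 to 9 had a TSS peak in each young library and 8 in each middle-aged library. Ptprc (CD45), Spi1, Itgam, Adgre1, Cd68, Tal1, Ikzf1 and Laptm5 had one in all 6 libraries, Csf1r had one in 2, and Cd3e and Gata1 had none. Of 8 endothelial markers, 2 had a TSS peak in each young library and 2 to 4 in each middle-aged library. Cdh5 had one in all 6 libraries, at ranks of 85.4 to 89.2. Kdr had one in 5, Pecam1 in 3 and Tek in 1, and Tie1, Emcn, Sox17 and Vwf had none. A TSS peak in all 6 libraries was thus present for 33.33% of the SSPC markers, 66.67% of the hematopoietic and 12.5% of the endothelial ones. The share among all protein-coding genes was 48.36%. SSPC is therefore used below as the label of the cultures, and the part of other cell types in the values was not tested.

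Upstream sequences are shown for 6 members. Those of Kdm4c, Dnmt1 and Hdac7 are shown because a peak was called at one start and not at another of the same gene, and those of Hdac9, Tet1 and Kdm5b because their TSS peak was missing from some or all libraries. The bases are the 150 closest to the start that no annotated exon covers (88 for Tet1), and they may lie in an intron. They run 5′ to 3′ on the strand of the gene and come from RefSeq on build GRCm38.p6. CpG dinucleotides are in capitals, as starts with and without a peak differed in their CpG content.
Kdm4c, start with a peak (chr4:74251729-74251878, plus strand): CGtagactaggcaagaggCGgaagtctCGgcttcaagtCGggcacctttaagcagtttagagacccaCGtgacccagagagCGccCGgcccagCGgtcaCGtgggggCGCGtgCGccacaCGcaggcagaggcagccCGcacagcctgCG
Kdm4c, upstream start without a peak (chr4:74242347-74242496, plus strand): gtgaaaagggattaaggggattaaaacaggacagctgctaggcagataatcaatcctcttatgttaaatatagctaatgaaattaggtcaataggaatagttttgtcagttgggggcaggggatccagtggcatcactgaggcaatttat
Dnmt1, start with a peak (chr9:20952980-20953129, minus strand): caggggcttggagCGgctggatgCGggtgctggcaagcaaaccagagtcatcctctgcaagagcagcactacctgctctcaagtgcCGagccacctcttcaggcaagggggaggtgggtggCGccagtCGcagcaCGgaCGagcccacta
Dnmt1, upstream start without a peak (chr9:20959889-20960038, minus strand): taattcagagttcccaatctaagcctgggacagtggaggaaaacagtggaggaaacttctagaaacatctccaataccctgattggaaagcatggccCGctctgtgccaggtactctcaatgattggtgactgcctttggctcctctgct
Hdac7, start with a peak (chr15:97831768-97831917, minus strand): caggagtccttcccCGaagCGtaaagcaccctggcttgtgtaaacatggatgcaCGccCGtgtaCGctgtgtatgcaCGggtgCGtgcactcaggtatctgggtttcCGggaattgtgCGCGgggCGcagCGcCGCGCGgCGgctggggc
Hdac7, upstream start without a peak (chr15:97844503-97844652, minus strand): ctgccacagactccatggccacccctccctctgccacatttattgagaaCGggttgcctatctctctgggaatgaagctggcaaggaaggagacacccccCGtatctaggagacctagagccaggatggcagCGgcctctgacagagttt
Hdac9, start with a peak in some libraries (chr12:34528890-34529039, minus strand): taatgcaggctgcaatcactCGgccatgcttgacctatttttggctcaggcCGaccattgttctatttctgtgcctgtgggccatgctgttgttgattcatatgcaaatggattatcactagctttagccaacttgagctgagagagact
Tet1 (chr10:62887325-62887412, minus strand): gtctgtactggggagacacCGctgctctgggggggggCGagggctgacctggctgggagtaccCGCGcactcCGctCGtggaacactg
Kdm5b (chr1:134560021-134560170, plus strand): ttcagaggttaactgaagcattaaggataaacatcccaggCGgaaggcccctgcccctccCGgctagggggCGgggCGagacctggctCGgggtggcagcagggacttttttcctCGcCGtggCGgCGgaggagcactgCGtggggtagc
The Kdm4c start with a peak carried 15 CpGs in these bases and the start without a called peak 0. The Dnmt1 start with a peak carried 7 and the one without 1, and Hdac7 had 16 against 3. The Hdac7 peak was called in 5 libraries and reached the printed bases in the middle-aged libraries only. In young 1 and young 2 it ended at positions 97831763 and 97831751, short of them. Hdac9 had 2 CpGs although a peak was called at this cluster of starts in 5 libraries. A peak reached its 300-base RefSeq promoter in 4 libraries, and the young 3 peak, from position 34529288, lay upstream of the printed bases. Kdm5b had 10 CpGs and Tet1 had 6, and neither 300-base RefSeq promoter was covered by a peak in any library.

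Promoters of these genes were open in nearly all libraries at both ages. In the young libraries 42, 42 and 40 of the 45 members had a TSS peak, and in the middle-aged libraries 42, 42 and 43. Of all protein-coding genes, 49.53% to 56.82% had one in the young and 57.43% to 58% in the middle-aged libraries. In all 6 libraries a TSS peak was present for 39 members, 86.67%, where the share among all genes was 48.4%. A further 4 members had one in 1 to 5 libraries (13.2% of all genes), and 2 had none (38.5% of all genes). All 8 Polycomb genes, all 7 sirtuins, all 3 DNA methyltransferases and all 4 SWI/SNF genes had a TSS peak in every library.

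The 4 members with a peak in part of the libraries were Hdac7, Hdac9, Tet1 and Kmt2d. Hdac7, a class IIa deacetylase that represses MEF2 target genes, ranked at 36.3 in young 1 and 30.4 in young 2, had no TSS peak in young 3, and ranked at 58.3, 58.5 and 69.4 in the middle-aged libraries. Its middle-aged ranks lay above both young ranks. Hdac9, of the same class, ranked at 16.1, 56.3 and 53.0 in the young libraries and at 40.0 and 47.9 in middle-aged 2 and 3, and it had no TSS peak in middle-aged 1. Kmt2d, a methyltransferase of lysine 4 of histone H3 at enhancers, ranked at 33.9 and 42.3 in young 1 and 2 and at 49.0, 41.8 and 49.1 in the middle-aged libraries, with no TSS peak in young 3. The Kmt2d summits lay 660 to 1099 bp upstream of the start, and with a window of 100 bp the gene had a TSS peak in 0 libraries.

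Tet1, which begins active demethylation of cytosine, was the member that differed most in presence. It had no TSS peak in the 3 young libraries or in middle-aged 2, and ranked at 6.01 in middle-aged 1 and 47.9 in middle-aged 3. It was the 1 member with a peak in at least 2 more middle-aged than young libraries, a difference that 2.78% of all genes showed, and no member had one in at least 2 more young libraries (0.11% of all genes). The peaks of middle-aged 1 and 3 did not lie at the same place, with summits 389 and 1266 bp downstream of a Tet1 start. Middle-aged 2 had a peak at a rank of 17.8 that began 1053 bp from the same start, just outside the window, and lay inside the span of the middle-aged 3 peak. With starts of basic-tagged transcripts only, or with a window of 100 bp, Tet1 had a TSS peak in 0 libraries.

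**Figure D1:**
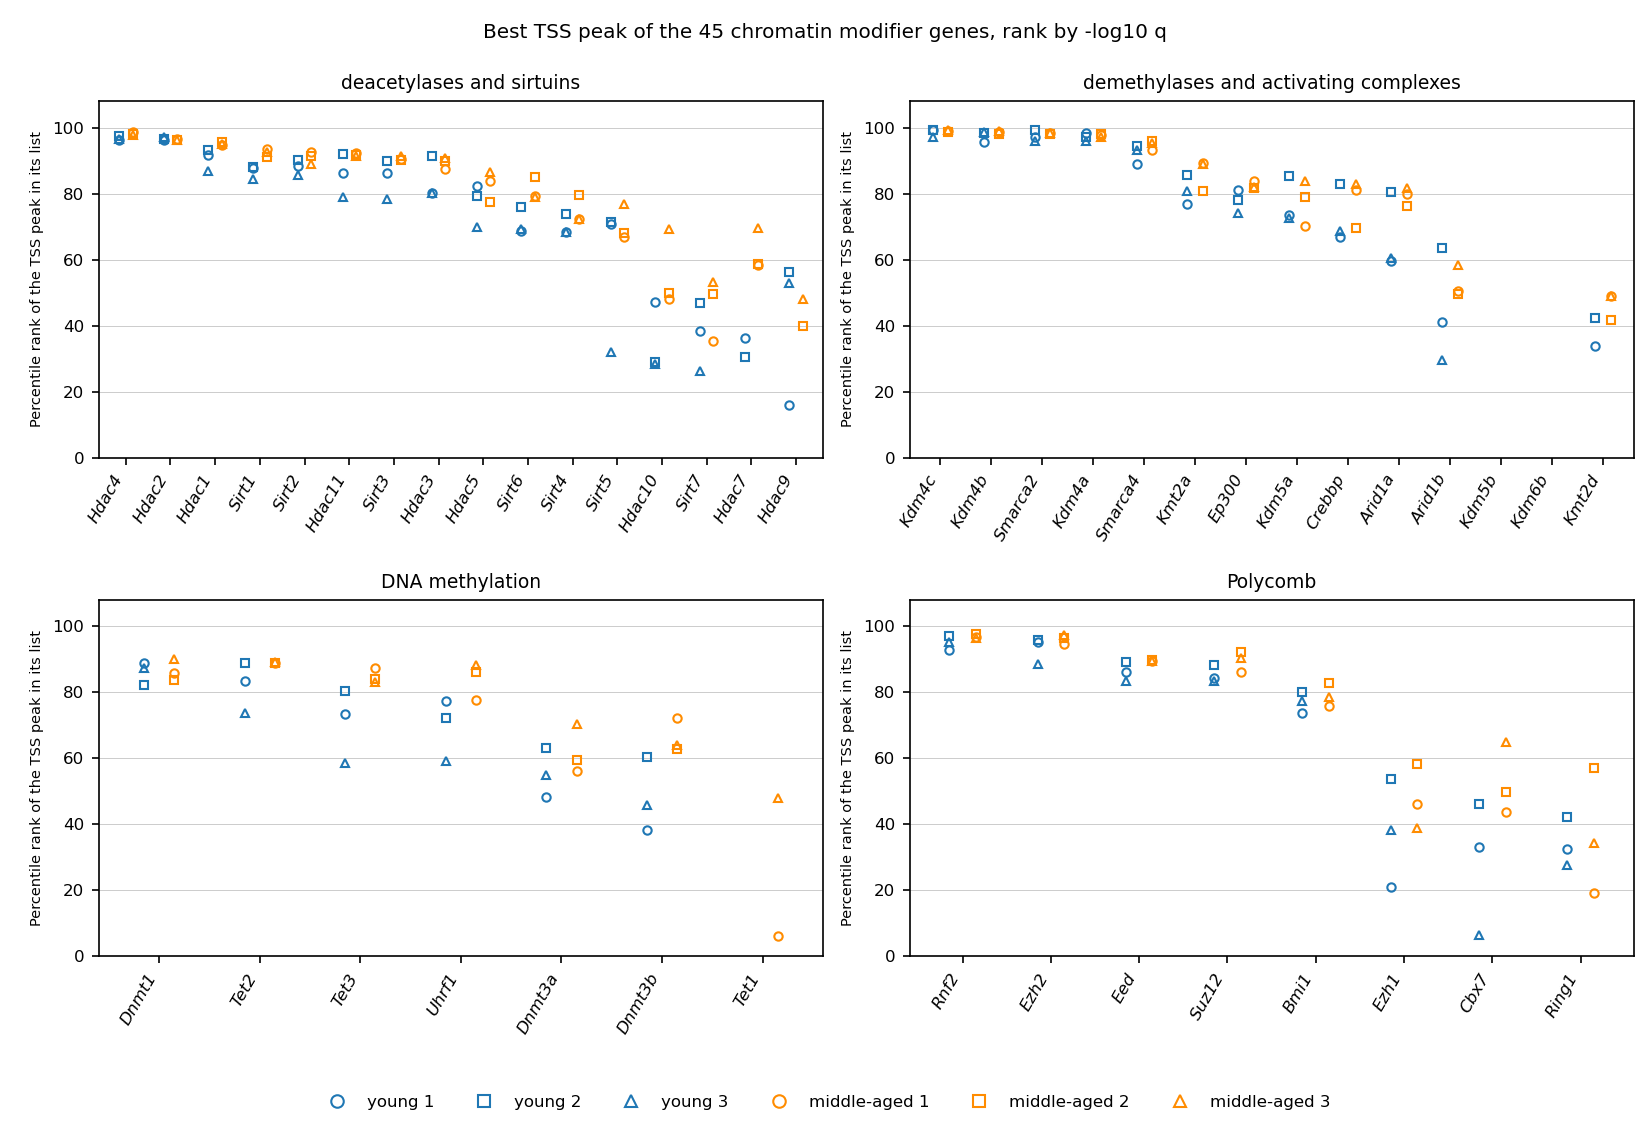
Percentile rank of the best TSS peak in its own list (vertical axis, 0 to 100) for each of the 45 members in 4 panels by role, ordered by mean rank, with 1 point per library (blue young, orange middle-aged; circle, square and triangle are replicates 1, 2 and 3). Members without a point have no TSS peak in that library, as Kdm5b and Kdm6b do throughout, and the members of lower rank spread more widely between libraries than those near 100.

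Among deacetylases, Hdac4 and Hdac2 held the highest ranks. Hdac4, a class IIa deacetylase that restrains hypertrophy of chondrocytes, ranked at 96.2, 97.6 and 96.6 in the young and 98.7, 98.2 and 97.7 in the middle-aged libraries, the highest mean of the group (97.5). The middle-aged ranks were all above the young, by a mean of 1.40 ± 0.52 percentile points (limma estimate ± SE, adjusted p = 0.312 over all genes). Hdac2, a class I deacetylase of the NuRD and SIN3 complexes, ranked at 96.3, 96.5 and 97.1 against 96.4, 96.4 and 96.1 and was the only one of the 39 members with a lower middle-aged mean, by −0.31 ± 0.53 (limma adjusted p = 0.678). Its TSS peak was the widest of all members, at 1052, 1075 and 776 bp in the young and 1071, 1140 and 1121 bp in the middle-aged libraries, and the groups overlapped.

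Hdac1, the partner of HDAC2 in the same complexes, ranked at 91.6, 93.3 and 87.0 in the young and 94.8, 95.6 and 95.0 in the middle-aged libraries. These groups did not overlap, nor did they among the genes called in all 6 libraries, where the ranks were 70.9, 71.7 and 67.3 against 75.6, 79.2 and 75.3. Hdac2 went the other way on that scale, with 86.3, 84.5 and 91.6 against 83.1, 82.5 and 80.8. The difference was 6.78 ± 3.79 for Hdac1 (limma adjusted p = 0.804) and −5.33 ± 2.39 for Hdac2 (limma adjusted p = 0.791), so neither passed.

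Hdac10, a class IIb enzyme that deacetylates polyamines, showed the largest rank difference of the deacetylases and sirtuins called in all 6 libraries. It ranked at 47.1, 29.0 and 28.4 in the young and at 48.2, 49.7 and 69.3 in the middle-aged libraries, a difference of 20.9 ± 10.3 percentile points (limma adjusted p = 0.315). The lowest middle-aged value stood just above the highest young value, and among the shared genes the difference was 0.73 ± 3.60. Its peak measured 482, 420 and 462 bp against 566, 546 and 566 bp, so every middle-aged peak was wider, by 0.30 ± 0.10 on the log2 scale (limma adjusted p = 0.639).

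The 7 sirtuins spanned most of the range of ranks. Sirt1, the nuclear sirtuin that deacetylates histones and p53, ranked at 87.8, 88.2 and 84.4 in the young and 93.5, 91.1 and 92.7 in the middle-aged libraries, without overlap. Sirt2, a largely cytoplasmic deacetylase, and Sirt3, a mitochondrial one, had mean ranks of 89.5 and 87.7. Sirt7, the nucleolar member, had the lowest mean rank of the sirtuins (41.6), at 38.3, 47.0 and 26.3 against 35.3, 49.6 and 53.1, and the groups overlapped. Its TSS peak, at 206 to 259 bp, was the narrowest on average of the members called in all 6 libraries. Sirt6, which acts at telomeres and in DNA repair, had peaks of 288, 403 and 508 bp in the young and 635, 623 and 609 bp in the middle-aged libraries. The Sirt6 groups did not overlap, with a difference of 0.68 ± 0.22 on the log2 scale (limma adjusted p = 0.639).

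Some of these peaks cannot be credited to the member alone. The best TSS peak also fell in the start window of an oppositely oriented neighbour in all 6 libraries for Hdac3 with Rell2 (123 bp between starts), Sirt2 with Nfkbib (95 bp), Sirt3 with Psmd13 (99 bp), Sirt6 with Ankrd24 (743 bp) and, among the demethylases, Kdm5a with Ccdc77 (232 bp).

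In the DNA methylation group the maintenance enzyme stood above the de novo enzymes. Dnmt1 ranked at 88.8, 82.3 and 87.3 in the young and 85.7, 83.6 and 90.0 in the middle-aged libraries, the highest mean of the group (86.3) with the smallest difference, 0.33 ± 3.29 (limma adjusted p = 0.945). The de novo methyltransferase Dnmt3b had the lowest mean of those called in all 6 (57.3) and the largest difference. It ranked at 38.3, 60.4 and 45.9 against 72.2, 62.9 and 64.2, which is 18.2 ± 8.39 percentile points with no overlap (limma adjusted p = 0.312). Among the shared genes that difference was 0.86 ± 4.22. Dnmt3a, the other de novo enzyme, had a mean rank of 58.7.

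Tet2 and Tet3 had mean ranks of 85.5 and 77.9, in contrast to Tet1. Tet3 ranked at 73.5, 80.4 and 58.7 in the young and 87.3, 84.2 and 83.2 in the middle-aged libraries, and its groups did not overlap (14.0 ± 6.11, limma adjusted p = 0.312). The best Tet3 peak of young 3 lay at the start at position 83456392. In the other libraries it lay at the next start downstream, where young 3 ranked at 47.0, so this difference mixes peaks at separate starts. Uhrf1 ranked at 77.4, 72.1 and 59.1 against 77.7, 86.2 and 88.2, with the lowest middle-aged value just above the highest young value. For both, young 3 was the lowest of all libraries.

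The Polycomb genes split into a high and a low set. Rnf2, the E3 ligase of PRC1, ranked at 92.7, 97.0 and 95.4 in the young and 96.9, 97.7 and 96.6 in the middle-aged libraries, the highest mean of the group (96.1). Ring1, its close paralog, had the lowest (35.5), at 32.5, 42.1 and 27.8 against 19.3, 57.2 and 34.2. The Ring1 difference of 2.77 ± 12.1 (limma adjusted p = 0.869) rested on middle-aged 2, since it was −7.38 without that library. Of the PRC2 genes, the methyltransferase Ezh2 had a mean rank of 94.7 and its paralog Ezh1 of 42.8, while the subunits Eed and Suz12 had 88.0 and 87.5.

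Cbx7, the PRC1 subunit that reads the PRC2 mark, had the largest rank difference of the 39 members called in all 6 libraries. It ranked at 33.1, 46.0 and 6.32 in the young and at 43.8, 49.8 and 64.8 in the middle-aged libraries, a difference of 24.3 ± 12.4 (limma adjusted p = 0.316). The groups overlapped, young 3 was far below the rest, and the difference among the shared genes was 2.08 ± 2.92. Cbx7 and Ring1 were, with Sirt7, the narrowest of the members called in all 6 libraries, at means of 301.5 and 312.8 bp, and Eed at 1020 bp was, with Hdac2 and Hdac4, among the widest. Ring1 was narrower in the middle-aged libraries, at 461, 380 and 296 bp against 206, 312 and 222 bp (−0.62 ± 0.23 on the log2 scale, limma adjusted p = 0.639), with overlap.

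The 3 Kdm4 demethylases, which remove methyl groups from lysines 9 and 36 of histone H3, had mean ranks from 97.4 to 98.8, and no other gene of their group except Smarca2 (97.9) lay so high. Kdm4c was the highest of all members, at 99.3, 99.3 and 97.1 in the young and 99.0, 98.7 and 99.4 in the middle-aged libraries (0.50 ± 0.58, limma adjusted p = 0.539). Kdm5b and Kdm6b, which demethylate lysine 4 and lysine 27 of histone H3, had no TSS peak in any library. The writers Kmt2a, Ep300 and Crebbp had mean ranks of 83.8, 80.2 and 75.4, and the SWI/SNF ATPase Smarca4 had 93.6.

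The ARID subunits of SWI/SNF ranked below its ATPases. Arid1a ranked at 59.7, 80.4 and 60.6 in the young and 79.9, 76.2 and 81.7 in the middle-aged libraries, the largest difference of its group (12.4 ± 6.77, limma adjusted p = 0.319), and the groups overlapped through young 2. Its peak measured 400, 527 and 331 bp in the young and 735, 847 and 758 bp in the middle-aged libraries without overlap, 0.92 ± 0.19 on the log2 scale, which did not pass the test (limma adjusted p = 0.299) and was the lowest adjusted p of any member for width. Arid1b had the lowest mean rank of those in its group called in all 6 libraries (48.7), at 41.0, 63.4 and 29.7 against 50.4, 49.5 and 58.4. Among the shared genes its middle-aged ranks of 4.11, 3.88 and 5.98 all lay below the young ranks of 6.10, 12.7 and 9.50.

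**Figure D2:**
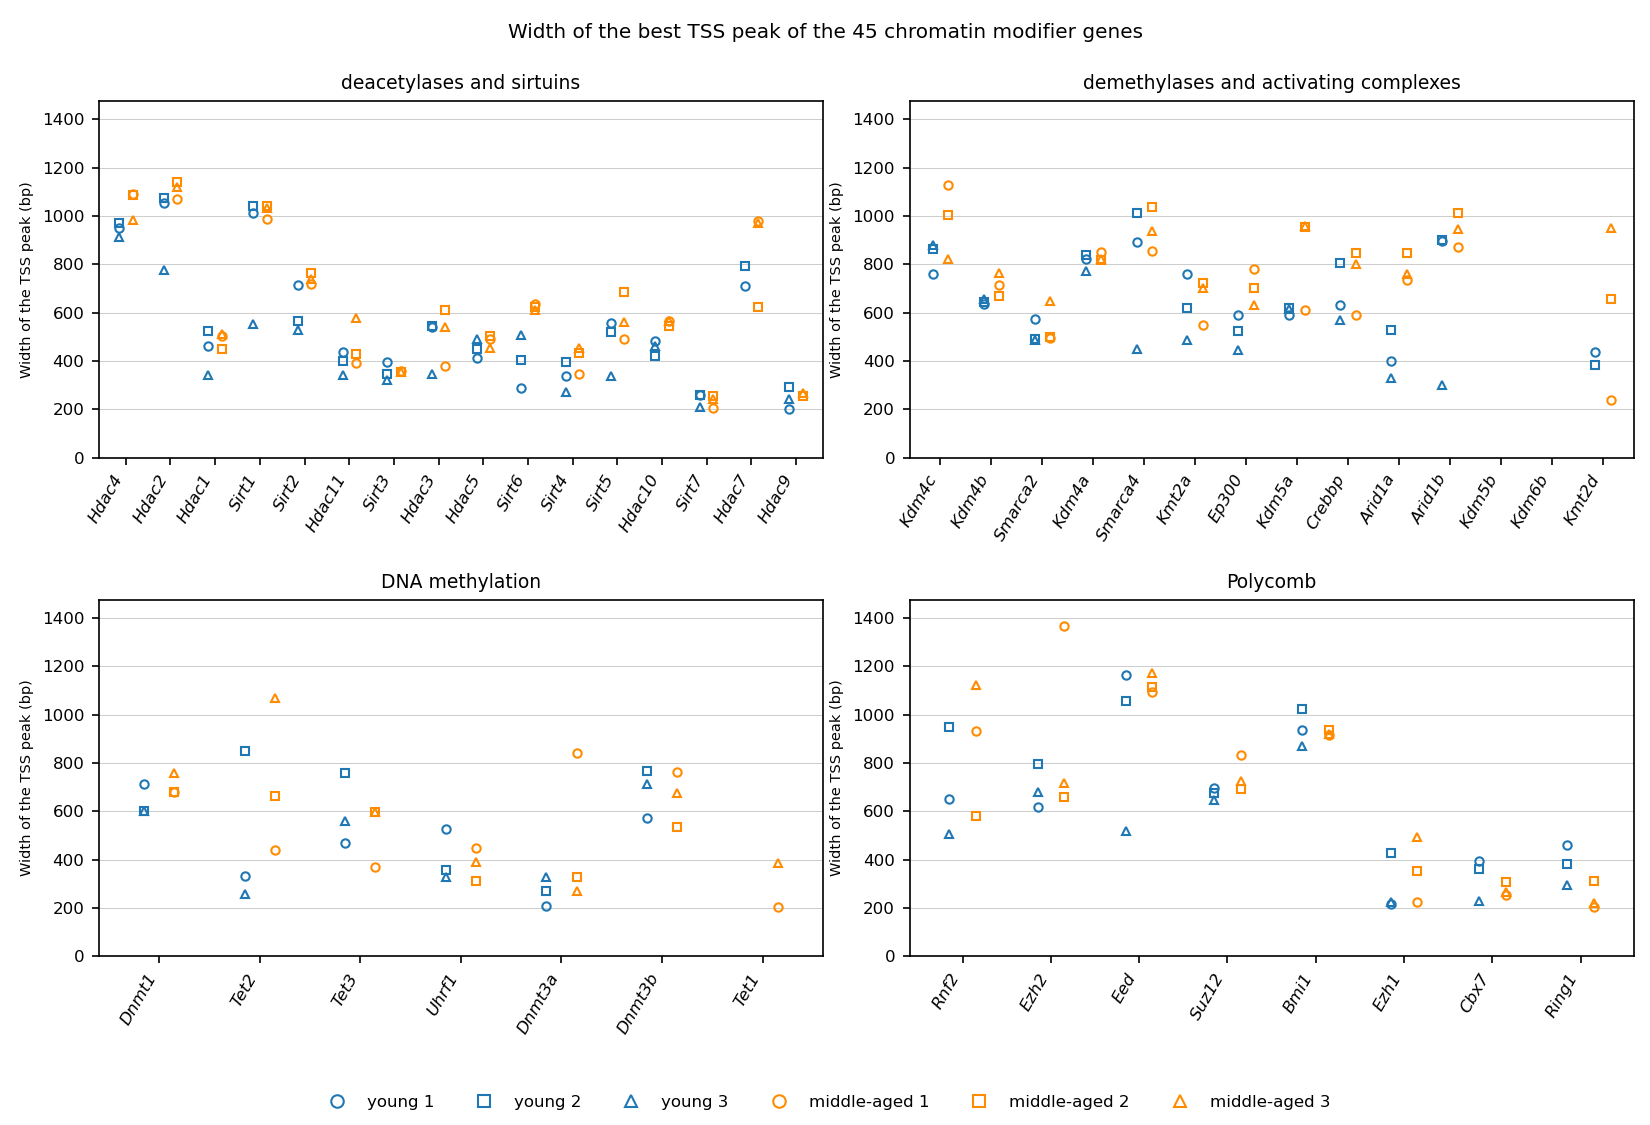
Width of the best TSS peak in bp (vertical axis from 0) for the 45 members by role group, in the order of mean rank, with 1 point per library (blue young, orange middle-aged). Hdac2, Eed and Hdac4 are widest with means near 1000 bp, and Sirt7 at 206 to 259 bp is narrowest on average among members called in all 6 libraries; for Arid1a and Sirt6 every orange point lies above every blue point.

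Across all members, ranks were higher at middle age about as often as in the genome at large. The mean rank was higher in the middle-aged libraries for 38 of 39 members, against 93.93% of the 10569 genes called in all 6 libraries. The median difference was 5.05 percentile points for the members and 4.97 for all genes. In 12 of the 39 members every middle-aged library ranked above every young one (30.6% of all genes), and in 0 members every one ranked below (0.274%). No member passed an adjusted p of 0.05 in limma, and neither did any other gene. At an unadjusted p below 0.05 there were 5 members with a higher rank (Hdac1, Hdac4, Sirt1, Tet3 and Uhrf1), where 15.2% of all genes were, and 0 with a lower rank (0.0568%). An exact permutation test over 3 against 3 libraries cannot go below a two-sided p of 0.1.

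A rank in the whole list also depends on how many weak peaks the list holds, and the middle-aged lists were longer. With all lists cut to the same length, 22 of the 35 members fitted were higher at middle age (62.6% of all genes). The median difference was then 0.857 percentile points for the members and 0.855 for all genes. Without young 3 and with whole lists, 35 of 41 members were higher (81.8% of all genes), by a median of 2.99 against 2.39 for all genes. Ranked only among the best TSS peaks of the 10569 shared genes, 20 of 39 members were higher at middle age (49.7% of all genes), with a median difference of 0.06 percentile points against −0.02 for all genes. Ranking within these genes gives every library nearly the same median. It therefore shows how a gene moved relative to the other genes and cannot show a shift common to all. On this scale the groups did not overlap for 1 member that was higher, Hdac1 (5.86% of all genes), and for 3 that were lower, Hdac2, Sirt7 and Arid1b (6.05%). By role group, 8 of 14 deacetylases and sirtuins, 4 of 6 DNA methylation genes, 3 of 8 Polycomb genes and 5 of 11 demethylases and members of activating complexes were higher. No member passed in limma (lowest adjusted p = 0.791, with 1 member and 648 of all genes at an unadjusted p below 0.05). Measured as the summit pileup over the genome-wide background of the list, centred on the median of all genes, 14 of 39 members were higher (48.1% of all genes). On that scale 2 members were higher without overlap (Hdac1 and Tet3; 5.49% of all genes) and 3 were lower (Hdac2, Sirt7 and Arid1b; 7.16%).

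**Figure D3:**
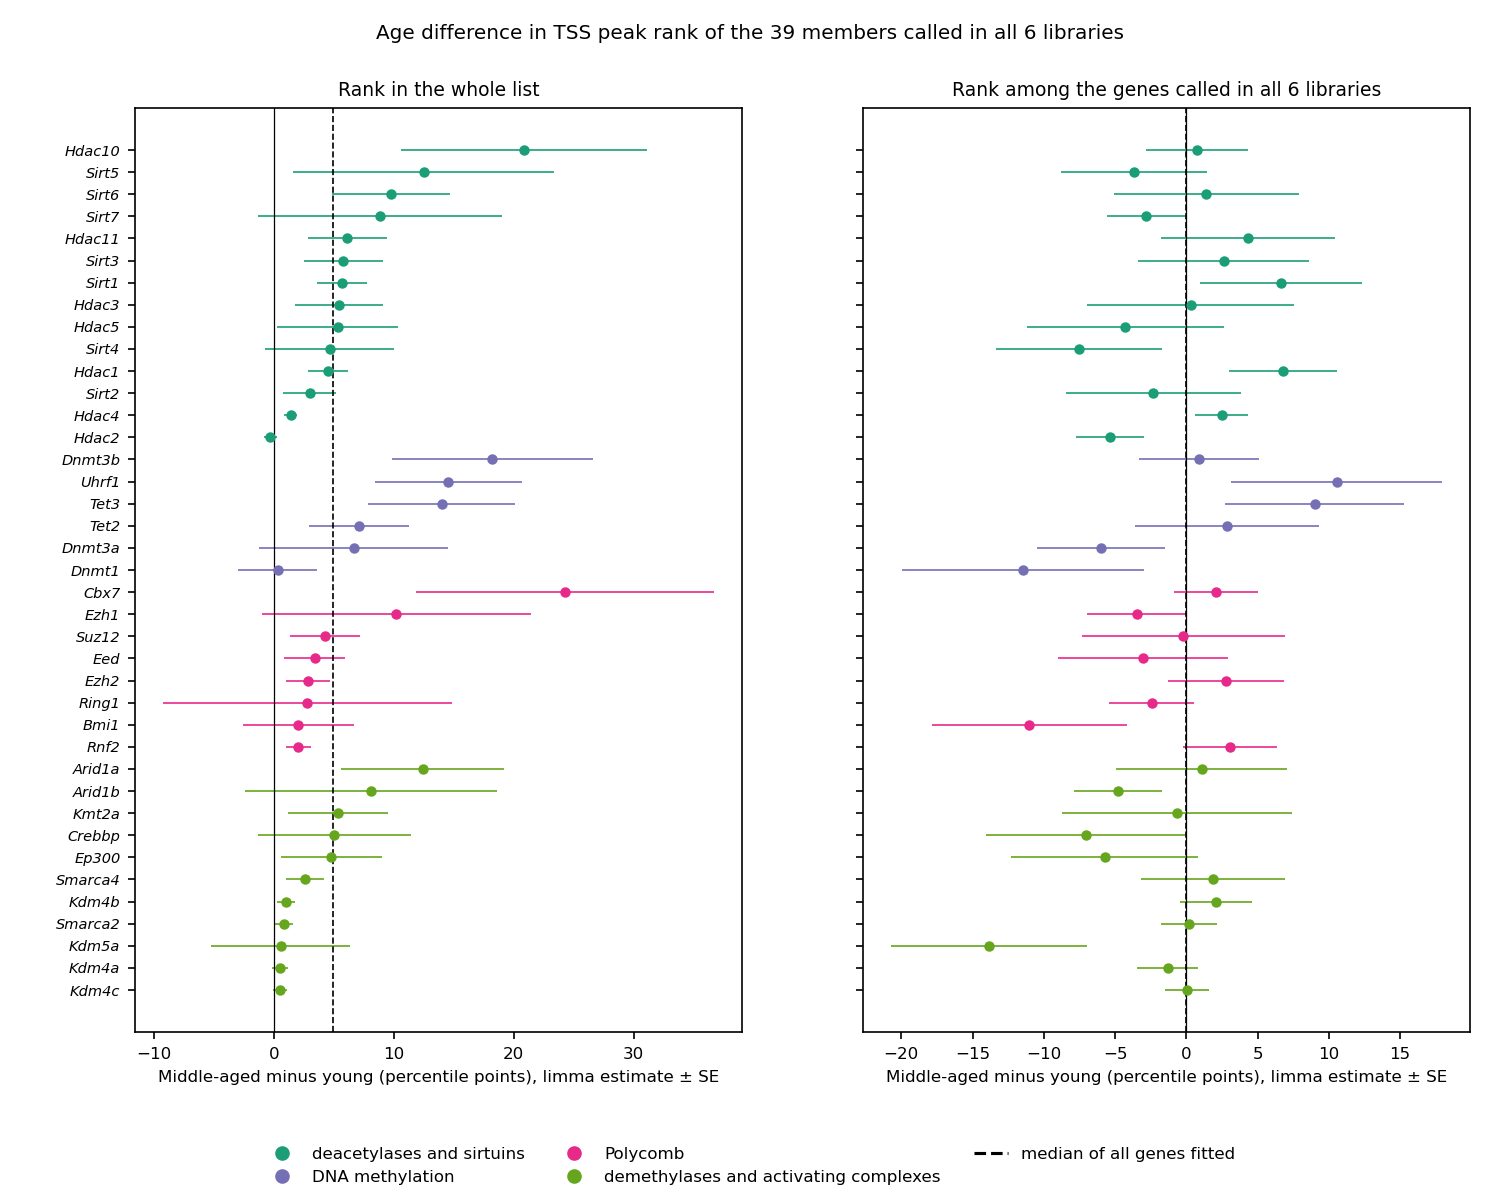
Middle-aged minus young difference in percentile points (horizontal axis, limma estimate ± SE) for the 39 members called in all 6 libraries, coloured by role group, for the rank in the whole list (left) and among the shared genes (right); dashed lines are the medians of all genes fitted. On the left 38 of 39 points lie above 0 and the dashed line is at 4.97, while on the right the points scatter on both sides of 0. The scale on the right cannot show a shift common to all genes.

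Widths gave a similar picture. The TSS peak was wider at middle age for 32 of 39 members, against 80.79% of all genes, with a median log2 difference of 0.21 for the members and 0.14 for all genes. It was wider without overlap between the groups for 7 members (14.7% of all genes), namely Hdac4, Hdac10, Sirt2, Sirt6, Kdm4b, Arid1a and Ep300, and narrower in this way for 0 (0.691%). By role group the wider members were 13 of 14 deacetylases and sirtuins, 3 of 6 DNA methylation genes, 5 of 8 Polycomb genes and 11 of 11 demethylases and members of activating complexes, and the difference between the groups was not tested. No member passed in limma, and at an unadjusted p below 0.05 there were 4 wider members (7.46% of all genes) and 1 narrower (0.189%). Once log2 widths were centred on the median of all genes, 20 of 39 members were wider (40.4% of all genes), with a median of 0.02 against −0.05 for all genes.

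Of the 45 members, 28 had starts in several separate clusters, and mostly 1 of the clusters was open. These 28 members had 86 clusters, of which 30 had a peak in all 6 libraries and 49 had none in any. A peak was seen at exactly 1 cluster for 19 members. The clusters were not counted for all protein-coding genes, so these counts cannot show a trait particular to the members. Kdm4c was open at the middle of its 3 clusters, Dnmt1 at the downstream of 2, and Hdac7 at the second of 4, which are the pairs whose sequences are shown above. Crebbp and Ep300 were open at the most upstream cluster alone.

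Separate peaks at 2 clusters in all 6 libraries were found for Arid1a, Arid1b, Hdac5, Sirt1, Smarca2 and Tet3. For Sirt1 the downstream cluster, at chr10:63339032-63339035, ranked at 84.4 to 93.5 and the upstream start, at position 63381704, at 77.1 to 89.6. The peaks were 552 to 1040 bp wide at the downstream cluster and 299 to 347 bp wide at the upstream one. For Hdac5 the upstream cluster ranked at 59.3, 68.3 and 6.68 in the young and 75.3, 72.0 and 76.5 in the middle-aged libraries, while the downstream one overlapped between the ages, at 70.0 to 82.4 against 77.4 to 86.4.

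Smarca2, a SWI/SNF ATPase, had its upstream cluster at ranks of 95.8 to 99.2 and a second open cluster far inside the gene at 79.0 to 89.0. The inner cluster had the lower mean at middle age, 83.0 against 86.5, the opposite direction to the upstream cluster, and the ages overlapped at both. At Tet3 the start at position 83456392 of chromosome 6 ranked at 50.2, 58.1 and 58.7 in the young and 69.8, 62.5 and 66.7 in the middle-aged libraries. The next Tet3 start downstream ranked at 73.5, 80.4 and 47.0 against 87.3, 84.2 and 83.2. Both were higher without overlap at middle age.

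**Figure D4:**
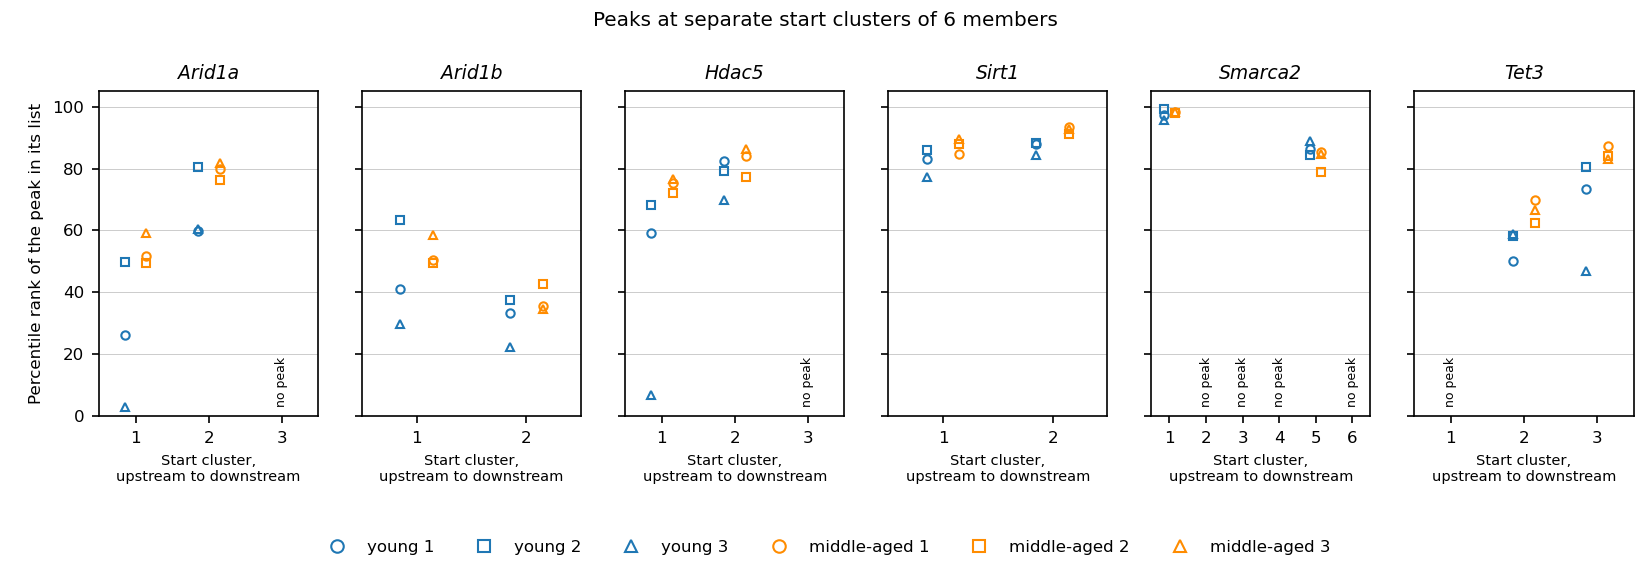
Percentile rank of the peak (vertical axis) at each start cluster, numbered from upstream to downstream, of the 6 members with separate peaks at 2 clusters, with 1 point per library (blue young, orange middle-aged). Clusters marked "no peak" have none in any library; at Hdac5 cluster 1 and Arid1a cluster 1 young 3 is lowest, at 6.68 and 2.89.

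The 2 members without a TSS peak had peaks farther away than the window of 1000 bp. Upstream of Kdm5b 1 peak was called in every library, with its summit 3096 to 3137 bp before the start, at ranks of 89.2, 92.0 and 83.1 in the young and 93.7, 87.8 and 93.9 in the middle-aged libraries. The groups overlapped, and the nearest RefSeq start of Kdm5b was 2897 to 2950 bp away from the peak. Upstream of Kdm6b a peak with its summit 5287 to 5340 bp before the GENCODE start ranked at 72.7, 82.3 and 84.1 against 87.1, 83.5 and 89.0. RefSeq has a model transcript of Kdm6b that starts 615 to 647 bp from this peak, and in young 1, middle-aged 2 and middle-aged 3 a second peak covered that model start. Another RefSeq model start, at position 69409629 downstream of the GENCODE start, was covered by a peak in all 6 libraries. That peak ranked at 34.5, 37.9 and 31.9 in the young and 31.5, 66.4 and 59.4 in the middle-aged libraries. The lack of a Kdm6b TSS peak thus depends on which annotation gives the starts.

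**Figure D5:**
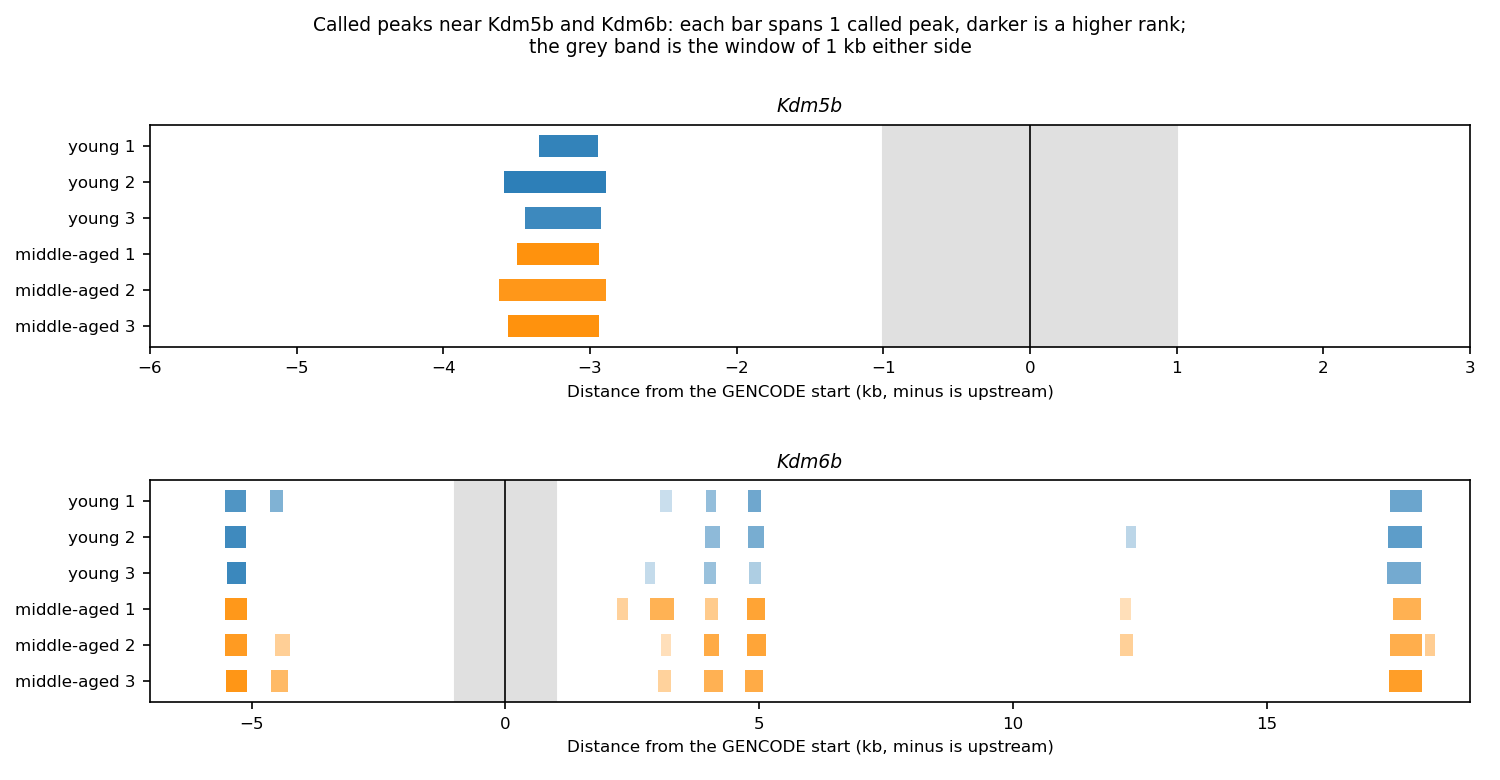
Called peaks around Kdm5b and Kdm6b in each library by distance from the GENCODE start in kb (horizontal axis, minus is upstream), where each bar spans 1 peak, darker bars have a higher rank and the grey band is the window of 1 kb either side. In all 6 libraries no bar touches the band, while a dark bar lies about 3 kb upstream of Kdm5b and 5 kb upstream of Kdm6b.

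Within the genes, outside every start window, the members together held 69, 80 and 48 peaks in the young and 88, 83 and 89 in the middle-aged libraries. The ratio of the means was 1.32, against 1.43 for all protein-coding genes, and young 3 was the lowest for both. Arid1b (11, 14 and 11 against 17, 14 and 14 peaks), Hdac9 (13, 19 and 9 against 14, 15 and 19) and Hdac4 (9, 10 and 7 against 10, 9 and 10) held the most, and these genes are also the longest members, at 353.3, 869.5 and 266.9 kb. Per length, Kdm6b stood out with 23.0 peaks per 100 kb as a mean over libraries, against 2.05 for all members together and 1.39 for all protein-coding genes. This gene is 15.2 kb long and held 3, 3 and 3 against 5, 4 and 3 such peaks. Among them in every library was the peak over a RefSeq model start described above. No inner peak was called in any library for 17 of the 45 members and 13761 of the 21853 protein-coding genes. These members included Hdac1, Hdac2, Hdac3, Suz12, Smarca4 and Ep300.

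The RefSeq promoter table held 52 promoters of 39 members (Hdac1, Hdac3, Hdac10, Kdm4b, Kdm5a and Kdm6b were not matched), each from 250 bases before to 50 after a start. A peak in all 6 libraries covered 36 of them and none covered 9. The median ratio of observed to expected CpG was 0.832 in the 36 and 0.283 in the 9, close to the 0.817 and 0.232 of all protein-coding promoters with and without a peak. It was highest, 0.929, in the 7 covered in 1 to 5 libraries, and the 9 ranged from 0 to 0.917, the latter at Kmt2d. Motifs were searched on both strands. The GC box (GGGCGG) was found in 71.2% of member promoters against 47.7% of all protein-coding ones, and in 77.8% against 72.1% of those with a peak in all 6 libraries. The palindromic NRF1 motif was found in 15.4% against 6.6% (22.2% against 13.1% with a peak in all 6), in promoters of Dnmt1, Ezh1, Ezh2, Cbx7, Sirt6, Kdm4c and Smarca4. A TATA box (TATAAA) was in 1.92% against 12.1%, a CCAAT box (CCAAT) in 30.8% against 37.8%, an ETS motif (CCGGAAG) in 7.69% against 11.9%, an E-box (CACGTG) in 9.62% against 8.03% and a CRE (TGACGTCA) in 0% against 2.31%. Among promoters with a peak in all 6 libraries the shares were 0% against 5.1% for the TATA box, 41.7% against 40.8% for the CCAAT box, 8.33% against 22% for the ETS motif, 11.1% against 11% for the E-box and 0% against 3.8% for the CRE. These matches describe the letters of the windows and no binding was measured.

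In a wider list of 129 other chromatin genes a TSS peak was present in all 6 libraries for 112 of them (86.82%) and in none for Setd1b, Chd5 and Smarca1. Hdac8, the remaining class I deacetylase, and Mta3, a NuRD subunit, each had one in 1 young and 3 middle-aged libraries. The mean rank was higher at middle age for 110 of 112, by a median of 4.58 percentile points, and without overlap for 51 of 112 (30.6% of all genes), a larger share than among the members. Among the shared genes 65 of 112 were higher (49.7% of all genes), 16 of them without overlap (5.86%), and 3 were lower without overlap (6.05%). Whether these shares differ from those of the members was not tested. The largest differences of the 112 were those of Kat2a, an acetyltransferase of the SAGA complex (26.3 ± 24.6 against 61.5 ± 11.3, mean ± SD, n = 3 each), Nsd1, a methyltransferase of lysine 36 of histone H3 (18.3 ± 10.1 against 51.0 ± 4.27), and the PRC1 subunit Cbx6 (49.1 ± 17.2 against 76.8 ± 4.80). At the other end the remodeller genes Chd7 (−0.12 ± 2.31, limma estimate ± SE) and Chd6 (−0.03 ± 0.23) and the methyl-CpG reader Mbd1 (0.04 ± 0.24) hardly moved. None passed in limma (adjusted p = 0.312 for Kat2a, Nsd1 and Cbx6, and 31 of 112 at an unadjusted p below 0.05, where 1611 of all 10569 genes were).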

How the data were processed

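ATAC-seq peak lists of 3 young and 3 middle-aged SSPC libraries were analysed. Per the labels, base calls were converted with bcl2fastq and build mm10 was used, and per the methods of the study reads were aligned with Bowtie2, freed of duplicates with Sambamba and called with MACS, separately for each library. Whether reads were shifted for the transposase is not given in the sources used here. Each deposited list holds peak positions and a summit, a score that is a whole-number form of the −log10 q, the fold enrichment of the summit over local background as a linear ratio, and the −log10 of the p-value and of the q-value, all as deposited by the authors. No read counts were used, and depth is known only as the genome-wide background solved from fold enrichment and −log10 p. The same solution gave a whole-number summit pileup for 100% of peaks in every list. The score was not used.

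The sample titles gave the age group and the replicate number. Start sites came from GENCODE vM21 (54361 sites of 21853 protein-coding genes) on the same build, counting from 1, and an overlap of 1 bp sufficed. Successive starts of a gene up to 1000 bp apart formed a cluster. Percentile ranks of −log10 q and log2 widths were compared with limma 3.58.1 (R 4.3.3, empirical Bayes with a trend, age as the only term, Benjamini-Hochberg over the 10569 genes with a TSS peak in all 6 libraries, threshold 0.05). The fit was tested on simulated data. Promoter sequences were taken from RefSeq. Tables were made with Python 3.11.15, pandas 2.3.3 and numpy 2.4.6. The members and lists were chosen with earlier results of these data known. Genes named with values were those with a TSS peak in fewer than 6 libraries, in each role group the highest and lowest mean rank and the largest and smallest rank difference, the 3 widest and 3 narrowest, and those with peaks at 2 start clusters; among the other chromatin genes, those differing by 2 libraries and the 3 largest differences each way. Any further gene was named after its values were seen. Alternatives covered the window, the q threshold, list length, depth, transcript set, rank scale, width scale, the replicate block and each library left out.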

Additional observations from a re-analysis of the deposited data

How the results depend on the processing

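The number of members with a TSS peak was higher by a mean of 1 in the middle-aged libraries and by 0.333 to 1.333 under every alternative tried. In the main setting the counts of single libraries ran from 40 to 43. The number of genes past an adjusted p of 0.05 in limma was 0 for rank and for width, and 0 for the members and for the other chromatin genes under every alternative. Over all genes it was 2 for the log2 summit height, 2 for the width in bp, and 0 to 78 for width when 1 library was left out, the 78 being without young 2; the cause was not tested. The replicate block also gave 0 calls for rank and 0 for width. Same-numbered libraries did not deviate together (correlations of 0.005, −0.036 and −0.069 over 10569 genes), so the numbers were not taken to pair the libraries.

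Rank differences of the named genes changed sign most often with another scale; the cause was not tested. Ranked among the genes called in all 6 libraries, Hdac5 was at −4.3, Sirt7 at −2.8, Dnmt1 at −11.5, Eed at −3.01, Ring1 at −2.44, Arid1b at −4.78 and Mbd1 at −0.23. By log2 summit height, Hdac5 was at −0.1, Hdac10 at −0.091, Sirt7 at −0.285, Dnmt1 at −0.236, Dnmt3b at −0.00876, Eed at −0.0137, Ring1 at −0.249, Cbx7 at −0.0111, Kdm4c at −0.0544, Smarca2 at −0.02, Arid1b at −0.234 and Mbd1 at −0.0398. With equally long lists, Hdac5 was at −1.07, Dnmt1 at −4.55, Eed at −0.339, Arid1b at −12 and Mbd1 at −0.0796. By fold enrichment, Dnmt1 was at −0.631, Ring1 at −1.62, Arid1b at −0.877 and Chd7 at 0.542, and with a window of 500 bp Chd7 was at 4.42. Leaving out 1 library moved Dnmt1 from −1.6 to 1.74, Ring1 from −7.38 to 11.6, Kdm4c from −0.216 to 0.859, Mbd1 from −0.0143 to 0.119 and Chd7 from −2.99 to 1.42. The normal score of the rank, a −log10 q of at least 5 and the replicate block changed the sign of none.

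With 3 libraries a group, and young 3 shallower than the rest, a difference that misses the threshold does not show that the ages were alike. Peaks below the threshold of the caller are not in the lists, so a gene without a TSS peak was below detection in that library, not closed.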
